A study of Mus musculus with 9 samples.

Results

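Cytochrome P450 enzymes (P450), glutathione S-transferases (GST), UDP-glucuronosyltransferases (UGT) and sulfotransferases (SULT) were followed in Vcam1 knockout and control cells of a mouse cholangiocarcinoma line. P450 genes were taken from the symbols Cyp followed by a family number, a letter and a gene number. Conjugation genes were those of the alpha, mu, omega, pi and theta GST classes, the Ugt1a, Ugt2a and Ugt2b subfamilies, and the Sult genes. Of 154 such symbols among 55276 rows, 52 reached a mean of 1 CPM (counts per 1000000 counts of the library) over the 9 libraries and are the members described here. They comprise 24 of 94 P450, 18 of 20 GST, 6 of 19 UGT and 4 of 21 SULT symbols. A further 77 symbols had counts but stayed below the level and 25 had none. The members were thus chosen by their symbols and by the mean level over all 9 libraries, which is given as a description. Just inside it lay Ugt2b35 at 1.14, Sult1a1 at 1.19 and Cyp2d26 at 1.23 CPM, and just outside it lay Cyp2j5 at 0.75, Cyp2c68 at 0.66 and Cyp27b1 at 0.56 CPM.

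All cells came from the PPTR line, established from liver cancer organoids of a mouse with Prom1CreERT2 and Rosa-ZsGreen and grown as a monolayer, so controls and knockouts alike carried the same engineered background and the reporter. Vcam1 was targeted with Cas9 and a guide to exon 2, and Vcam1KO1 and Vcam1KO2 are each the progeny of 1 cell. The control cells, Vcam1ctrl, and each clone gave 3 libraries from different passages, so that replicates measure the spread between passages of 1 line, and a clone cannot be told apart from the knockout it carries. Estimated counts per library totalled 53415907 to 125223073. Vcam1 transcript was at 221 to 329 CPM in control cells, 92.4 to 128 CPM in Vcam1KO1 and 83.0 to 119 CPM in Vcam1KO2.

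The 9 libraries did not come from like cell states by their markers. Summed hepatocyte markers were at 633 to 1017 CPM in control cells, mostly Apob and Hnf4a, against 1.69 to 3.07 CPM in Vcam1KO1 and 0.41 to 0.70 CPM in Vcam1KO2. Of the 10 listed, 7 were tested and all 7 were lower with both clones combined, against 21.2% of all genes tested. Tat, Cps1 and Tdo2 were at or near 0 in every library. The biliary keratin gene Krt19 was at 2129 to 2406 CPM in control cells and under 0.23 CPM in both clones, and 4 of the 7 biliary markers tested were lower and 1 higher. The summed biliary markers nonetheless went from 4533 to 5789 CPM in control cells to 10620 to 11080 CPM in Vcam1KO1 and 7634 to 11080 CPM in Vcam1KO2, nearly all of it in the clones being Spp1, which rose (2.03, adjusted p = 8.21e-05). Summed stellate and fibroblast markers rose from 431 to 836 CPM to 10470 to 13050 CPM in Vcam1KO1 and 6219 to 7531 CPM in Vcam1KO2, while the stellate gene Lrat stayed near 0. Of the 8 tested, 6 were higher and 0 lower with both clones combined, against 21.7% and 21.2% of all genes tested. In Vcam1KO1, 5 were higher and 1 lower, against 29.9% and 30.0%. Haematopoietic and endothelial markers summed to at most 20.9 and 4.45 CPM. In bulk samples fewer cells of a type and less RNA per cell cannot be told apart, and the part of these marker differences in the results below was not tested. Replicate 3 of Vcam1KO1 stood apart: the chi-square per degree of freedom between replicates 1 and 2 of that clone was 36.0, against 240 and 275 for the pairs with replicate 3. For Vcam1KO2 the values were 35.8, and 166 and 113 for the pairs with its replicate 3. Control pairs gave 84.4 to 169, with control replicate 3 the highest of the 3 control libraries for 43 of the 52 members, against 37.3% of all genes tested.

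P450 enzymes are haem proteins that insert an oxygen atom into drugs, fatty acids, sterols and retinoids, with electrons passed to most of them by P450 oxidoreductase. Transferases then attach glutathione, glucuronic acid or sulfate, and ABC transporters carry the conjugates out of the cell. In liver these genes are best known from hepatocytes, where nuclear receptors, the aryl hydrocarbon receptor and NRF2 regulate many of them, and bile duct cells carry their own, smaller set.

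Short letters bound by such regulators were looked for in the promoters of the members, taken as the 250 bases before and 50 bases after each RefSeq transcript start (GRCm38.p6). A promoter was found for 44 of the 52 members. The core of the aryl hydrocarbon receptor element, GCGTG on either strand, was in 15 of these 44 (34.1%), against 35.2% of 27025 genes. The core of the antioxidant response element, TGACNNNGC on either strand, was in 6 of 44 (13.6%), against 14% of all genes. Both motifs overlapped in the promoter of Gstm5, and a match is a description of letters, not a site. The 250 bases before the start are shown, 5′ to 3′ on the strand of the gene, for Cyp1b1 and Cyp46a1, which rose in both clones, and for Sult1d1 and Gsta3, which fell. Capitals mark the motif, GCGTG or its reverse complement in the first 3 and TGACNNNGC in Gsta3.
Cyp1b1 (chr17:79715062-79715311, minus strand): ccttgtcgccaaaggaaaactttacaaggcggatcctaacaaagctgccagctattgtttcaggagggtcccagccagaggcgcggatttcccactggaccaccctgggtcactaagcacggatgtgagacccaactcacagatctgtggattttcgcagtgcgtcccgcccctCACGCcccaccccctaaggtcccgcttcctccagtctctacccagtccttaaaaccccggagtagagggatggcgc
Cyp46a1 (chr12:108334066-108334315, plus strand): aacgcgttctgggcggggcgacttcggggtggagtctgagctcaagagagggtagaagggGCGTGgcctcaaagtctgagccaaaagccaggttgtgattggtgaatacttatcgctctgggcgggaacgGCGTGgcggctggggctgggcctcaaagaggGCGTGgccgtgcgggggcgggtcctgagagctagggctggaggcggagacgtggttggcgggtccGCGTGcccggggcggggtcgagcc
Sult1d1 (chr5:87569007-87569256, minus strand): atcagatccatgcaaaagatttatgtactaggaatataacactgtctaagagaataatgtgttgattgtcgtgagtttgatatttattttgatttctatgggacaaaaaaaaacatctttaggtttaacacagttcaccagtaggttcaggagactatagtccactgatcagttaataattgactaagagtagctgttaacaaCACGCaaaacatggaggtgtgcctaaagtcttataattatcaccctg
Gsta3 (chr1:21240335-21240584, plus strand): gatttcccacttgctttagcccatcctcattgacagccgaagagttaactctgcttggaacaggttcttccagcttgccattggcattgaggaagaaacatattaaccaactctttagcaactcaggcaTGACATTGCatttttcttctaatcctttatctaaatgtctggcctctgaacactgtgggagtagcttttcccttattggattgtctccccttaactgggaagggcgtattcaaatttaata
Cyp46a1 had 4 matches, the nearest beginning 24 bases before the start. Cyp1b1 had 1, on the opposite strand, 76 bases before the start, and Sult1d1 had 1, also on the opposite strand, 47 bases before it. The match of Gsta3 began 121 bases before its start. The same 5 letters thus stood in front of genes that rose and of a gene that fell to 0 counts.

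With both clones combined, 14 of the 52 members were higher than in control cells and 21 were lower by edgeR's quasi-likelihood test (adjusted p under 0.05 over 17672 genes tested), and 17 did not pass. Over all genes tested, 21.7% were higher and 21.2% lower. The median log2 fold change of the members was -0.76, against 0.07 for all genes tested. Members that reach the level only through 1 group had to differ between groups. Of the 52, 9 reached 1 CPM in control cells only, 3 in Vcam1KO1 only and 1 in Vcam1KO2 only. Another 3 reached it in both clones but not in control cells, so they could only come out higher. A further 2 reached it in control cells and Vcam1KO1 only, and 3 in control cells and Vcam1KO2 only. Of the 31 members at 1 CPM or more in all 3 groups, 11 were higher and 8 lower, with a median of 0.08. The libraries of both groups did not overlap for 12 members that were higher and 22 that were lower, against 21.2% and 23.0% of all genes. Without replicate 3 of Vcam1KO1 the counts were 14 higher and 24 lower, for which no share of all genes is given.

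**Figure D1:**
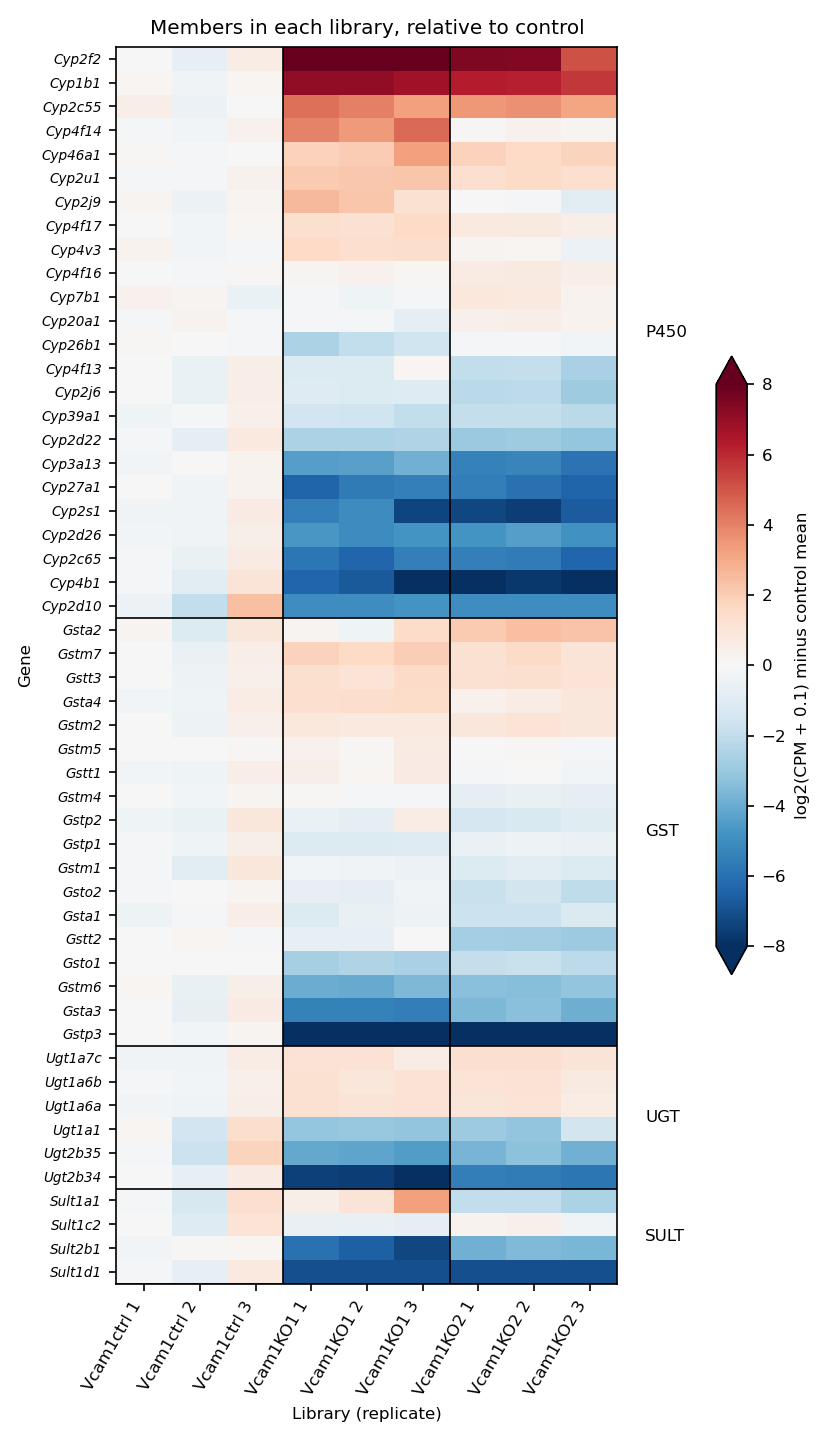
Level of each of the 52 members (rows, by family and then by fold change) in each of the 9 libraries (columns), as log2(CPM + 0.1) minus the mean of the 3 control libraries, with red higher and blue lower. The deepest blue rows, among them Gstp3, Cyp4b1 and Ugt2b34, are blue in all 6 knockout libraries, and the reddest, Cyp2f2 and Cyp1b1, are red in all 6.

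Among the P450 genes, 7 of 24 were higher and 10 lower in the combined comparison, against 21.7% and 21.2% of all genes tested. Of the 10, 6 reached 1 CPM in control cells only and could only come out lower, namely Cyp4b1, Cyp27a1, Cyp3a13, Cyp2c65, Cyp2d10 and Cyp2d26. Of the 7, Cyp2f2, Cyp2c55 and Cyp46a1 reached 1 CPM in the clones only and could only come out higher. The summed level of the 24 P450 genes was 386 to 675 CPM in control cells, 692 to 819 CPM in Vcam1KO1 and 342 to 481 CPM in Vcam1KO2, while its composition changed. Cyp1b1, which oxidises oestrogens and polycyclic hydrocarbons outside the liver as well as in it, was at 3.42, 2.49 and 3.50 CPM in control cells, at 432, 446 and 343 CPM in Vcam1KO1 and at 252, 237 and 161 CPM in Vcam1KO2. Every knockout library thus lay far above every control library. The combined rise was 99.1-fold (log2 fold change 6.63 ± 0.45 SE, adjusted p = 5.81e-06). Here and below, the SE was derived from the F statistic of the test. Per kilobase of exon, Cyp1b1 moved from place 45 among the 52 members in control cells to place 5 in Vcam1KO1 and place 8 in Vcam1KO2. Cyp2f2, known from airway club cells, where it activates naphthalene, was at 0.064, 0 and 0.14 CPM in control cells (at most 11 counts), at 61.7, 39.3 and 267 CPM in Vcam1KO1 and at 27.9, 26.3 and 5.27 CPM in Vcam1KO2. Replicate 3 was the highest library of one clone and the lowest of the other. Its log2 fold change was 9.91 ± 1.73 (adjusted p = 0.00155), and 8.77 without replicate 3 of Vcam1KO1 or 10.7 without control replicate 3.

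The other P450 genes that rose did so by smaller folds, and of these Cyp2c55 and Cyp46a1 reached 1 CPM in the clones only. Cyp2c55, an arachidonic acid-metabolising enzyme, was at 0.44, 0.17 and 0.27 CPM in control cells, 7.71, 5.96 and 3.46 CPM in Vcam1KO1 and 3.99, 4.62 and 3.18 CPM in Vcam1KO2. That is a rise of 16.3-fold (log2 fold change 4.03 ± 0.47, adjusted p = 0.000148) with no overlap between groups. Cyp46a1, the cholesterol 24-hydroxylase best known from neurons, went from 0.77, 0.63 and 0.73 CPM to 2.79, 3.26 and 7.81 CPM in Vcam1KO1 and 2.86, 2.36 and 2.71 CPM in Vcam1KO2. Its rise was 5.08-fold (2.35 ± 0.46, adjusted p = 0.00283), with replicate 3 of Vcam1KO1 above all others. Cyp2u1, a fatty acid hydroxylase, was at 1.01, 1.03 and 1.51 CPM in control cells, 5.35, 5.51 and 5.78 CPM in Vcam1KO1 and 3.07, 3.51 and 3.05 CPM in Vcam1KO2. Both clones lay above the controls, by 3.69-fold in all (1.89 ± 0.34, adjusted p = 0.00176). Cyp4f17, of the Cyp4f subfamily of fatty acid omega-hydroxylases, was at 7.11, 6.03 and 7.94 CPM in control cells, 17.5, 16.7 and 21.2 CPM in Vcam1KO1 and 12.3, 11.4 and 9.92 CPM in Vcam1KO2. It rose 2.11-fold (1.08 ± 0.27, adjusted p = 0.00999). Its neighbour Cyp4f16 rose 1.38-fold (adjusted p = 0.036), a call lost when any control or any Vcam1KO2 library was left out, and with no filter on low counts.

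The P450 genes that fell did so in both clones and mostly to near 0. Cyp2s1, an epithelial P450 found mainly outside the liver, was at 73.1, 71.8 and 140 CPM in control cells, 1.93, 2.67 and 0.45 CPM in Vcam1KO1 and 0.48, 0.38 and 0.81 CPM in Vcam1KO2. It fell by 6.39 on the log2 scale (SE 0.67, adjusted p = 7.36e-05). Cyp4b1, which activates the lung toxin 4-ipomeanol, was at 56.1, 31.2 and 120 CPM in control cells, 0.63, 0.46 and 0.096 CPM in Vcam1KO1 and 0.14, 0.18 and 0.12 CPM in Vcam1KO2. It fell by 7.97 on the log2 scale (SE 0.68, adjusted p = 2.16e-05), or by 7.32 without control replicate 3. In neither gene did any knockout library come near the control range. Cyp2c65, a Cyp2c gene known from the intestine, was at 7.15, 5.54 and 12.9 CPM in control cells, 0.045, 0 and 0.08 CPM in Vcam1KO1 and 0.086, 0.071 and 0 CPM in Vcam1KO2, with at most 5 counts in a knockout library. Its log2 fold change was -7.51 ± 0.84 (adjusted p = 0.000109).

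All 3 members of the Cyp2d subfamily, relatives of the human drug-metabolising enzyme CYP2D6, were lower. Cyp2d26 was at 3.04, 2.95 and 4.97 CPM in control cells, 0.045, 0.01 and 0.032 CPM in Vcam1KO1 and 0.034, 0.071 and 0.03 CPM in Vcam1KO2, or 1 to 5 counts in a knockout library (log2 fold change -6.59 ± 0.46, adjusted p = 6.67e-06). Cyp2d10 was at 2.15, 0.72 and 16.7 CPM in control cells and had 1 count in all 6 knockout libraries together. Its controls thus ranged widely, and against the floor of 3 counts in a library its mean was at least 149-fold lower, or at least 32.8-fold lower without control replicate 3. Since 50.2% of the 31-base words in its transcripts also occur in other genes, most with Cyp2d11, its counts are uncertain. Cyp2d22 fell 7.23-fold, from 25.9 to 71.2 CPM in control cells to 4.75 to 7.97 CPM over both clones (adjusted p = 5.95e-05).

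Sterol and bile acid enzymes went several ways. Cyp27a1, the sterol 27-hydroxylase, fell 82.3-fold from 15.9 to 23.4 CPM to at most 0.34 CPM (log2 fold change -6.36 ± 0.35, adjusted p = 1.97e-06), and Cyp39a1, an oxysterol 7-alpha-hydroxylase, fell 3.66-fold from 40.6 to 66.6 CPM to 11.3 to 17.4 CPM (adjusted p = 6.14e-05). Cyp7b1, another oxysterol 7-alpha-hydroxylase, was at 4.05 to 7.61 CPM in control cells, 4.70 to 5.38 CPM in Vcam1KO1 and 7.25 to 10.7 CPM in Vcam1KO2 and did not pass against control in either clone. Cyp51, the lanosterol demethylase of cholesterol synthesis, whose symbol lies outside the pattern, fell by 1.40 on the log2 scale (adjusted p = 0.00346). Of the Cyp2j genes, Cyp2j6 fell 3.06-fold from 27.3 to 57.3 CPM to 18.6 to 19.8 CPM in Vcam1KO1 and 5.59 to 9.47 CPM in Vcam1KO2 (adjusted p = 0.011). Its neighbour Cyp2j9 was at 0.44 to 0.80 CPM in control cells, 1.71 to 4.40 CPM in Vcam1KO1 and 0.33 to 0.65 CPM in Vcam1KO2 and did not pass combined (adjusted p = 0.192). Cyp4f13 did not pass combined (-1.21, adjusted p = 0.0953), and was lower in Vcam1KO2 (-2.22, adjusted p = 0.00133). Cyp3a13, of the main drug-metabolising subfamily, fell 31.7-fold (adjusted p = 7.36e-05). Cyp20a1, a P450 with no known substrate, was at 40.9, 52.5 and 38.2 CPM in control cells, 39.3, 40.9 and 25.3 CPM in Vcam1KO1 and 57.6, 61.8 and 53.9 CPM in Vcam1KO2, and did not pass against control (log2 fold change 0.08 ± 0.26, adjusted p = 0.819).

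GST genes made up most of the members' counts, with a summed level of 1843 to 3026 CPM in control cells, 1341 to 1412 CPM in Vcam1KO1 and 1379 to 1551 CPM in Vcam1KO2. Of 18, 4 were higher and 6 lower in the combined comparison, against 21.7% and 21.2% of all genes tested. Of the 6, Gstp3 reached 1 CPM in control cells only. Gstp1, the pi class enzyme abundant in bile duct cells, was the highest member per kilobase in all 3 groups. It was at 920, 761 and 1340 CPM in control cells, 449, 461 and 480 CPM in Vcam1KO1 and 667, 753 and 663 CPM in Vcam1KO2. The lowest control library lay just above the highest Vcam1KO2 library, and the combined fall was 1.74-fold (log2 fold change -0.80 ± 0.23, adjusted p = 0.0204), with an adjusted p of 0.115 without control replicate 3. Gstp1 shares 38.5% of its 31-base words with other genes, mainly Gstp2. Gsto1, an omega class enzyme that reduces dehydroascorbate, fell from place 2 per kilobase among the members to place 9 in Vcam1KO1 and place 5 in Vcam1KO2. It was at 549, 578 and 552 CPM in control cells, 88.1, 106 and 91.8 CPM in Vcam1KO1 and 152, 162 and 133 CPM in Vcam1KO2, a fall of 4.58-fold (-2.20 ± 0.20, adjusted p = 3.5e-05). Its 31-base words occur in no other gene.

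Gstp3, another pi class gene of the same cluster, was at 54.3, 44.5 and 60.8 CPM in control cells (2411 to 6813 counts) and had at most 2 counts in any knockout library. Against the floor of 3 counts it was at least 1217-fold lower. Only 0.53% of its 31-base words occur elsewhere. Gstm1, a mu class enzyme, was at 261, 155 and 507 CPM in control cells, 239, 225 and 194 CPM in Vcam1KO1 and 126, 147 and 130 CPM in Vcam1KO2. Its control libraries spanned those of Vcam1KO1, and the combined comparison did not pass (-0.80 ± 0.35, adjusted p = 0.092), although Vcam1KO2 alone was lower (-1.20 ± 0.35, adjusted p = 0.0164). Gsta3, an alpha class enzyme that in mice conjugates the aflatoxin epoxide, fell 20.6-fold from 47.6 to 118 CPM to 1.55 to 1.68 CPM in Vcam1KO1 and 4.95 to 7.38 CPM in Vcam1KO2 (adjusted p = 0.000295). Gstm6 fell 13.5-fold (adjusted p = 1.66e-05). Gsta1 fell 2.18-fold (adjusted p = 0.034), but 92.9% of its 31-base words are shared, mostly with Gm3776.

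Among the GST genes that rose, Gstm7 was at 3.03, 2.05 and 4.34 CPM in control cells, 11.2, 9.37 and 12.3 CPM in Vcam1KO1 and 6.99, 8.71 and 6.26 CPM in Vcam1KO2. That is a 2.91-fold rise (1.54 ± 0.32, adjusted p = 0.00393) without overlap. Gstt3, of the theta class, was at 31.7, 23.4 and 41.4 CPM in control cells, 75.2, 67.4 and 92.4 CPM in Vcam1KO1 and 73.6, 75.6 and 67.9 CPM in Vcam1KO2, 2.34-fold higher (1.23 ± 0.19, adjusted p = 0.000703). Gstm2 rose 1.80-fold without overlap (adjusted p = 0.00378). Gsta4, which conjugates the lipid peroxidation product 4-hydroxynonenal, was at 66.4 to 126 CPM in control cells, 214 to 239 CPM in Vcam1KO1 and 106 to 161 CPM in Vcam1KO2, and its combined call (adjusted p = 0.0289) was lost when control replicate 1 or 2 or Vcam1KO1 replicate 1 or 2 was left out. The 8 GST genes that did not pass combined were Gstm1, Gstm4, Gstm5, Gstp2, Gsta2, Gstt1, Gstt2 and Gsto2. Of these, Gstm1, Gstm4, Gstp2, Gstt2 and Gsto2 were lower and Gsta2 higher in Vcam1KO2, and Gstm5 was higher in Vcam1KO1 (0.39, adjusted p = 0.0411), a call lost under 12 of 15 alternatives, among them limma-voom (adjusted p = 0.0501) and DESeq2 (adjusted p = 0.06). Gstt1, a theta class enzyme, passed in no comparison, at 54.4 to 101 CPM in control cells, 77.2 to 109 CPM in Vcam1KO1 and 60.4 to 67.2 CPM in Vcam1KO2. Of all members, 2 passed in no comparison, Gstt1 and Sult1c2.

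**Figure D2:**
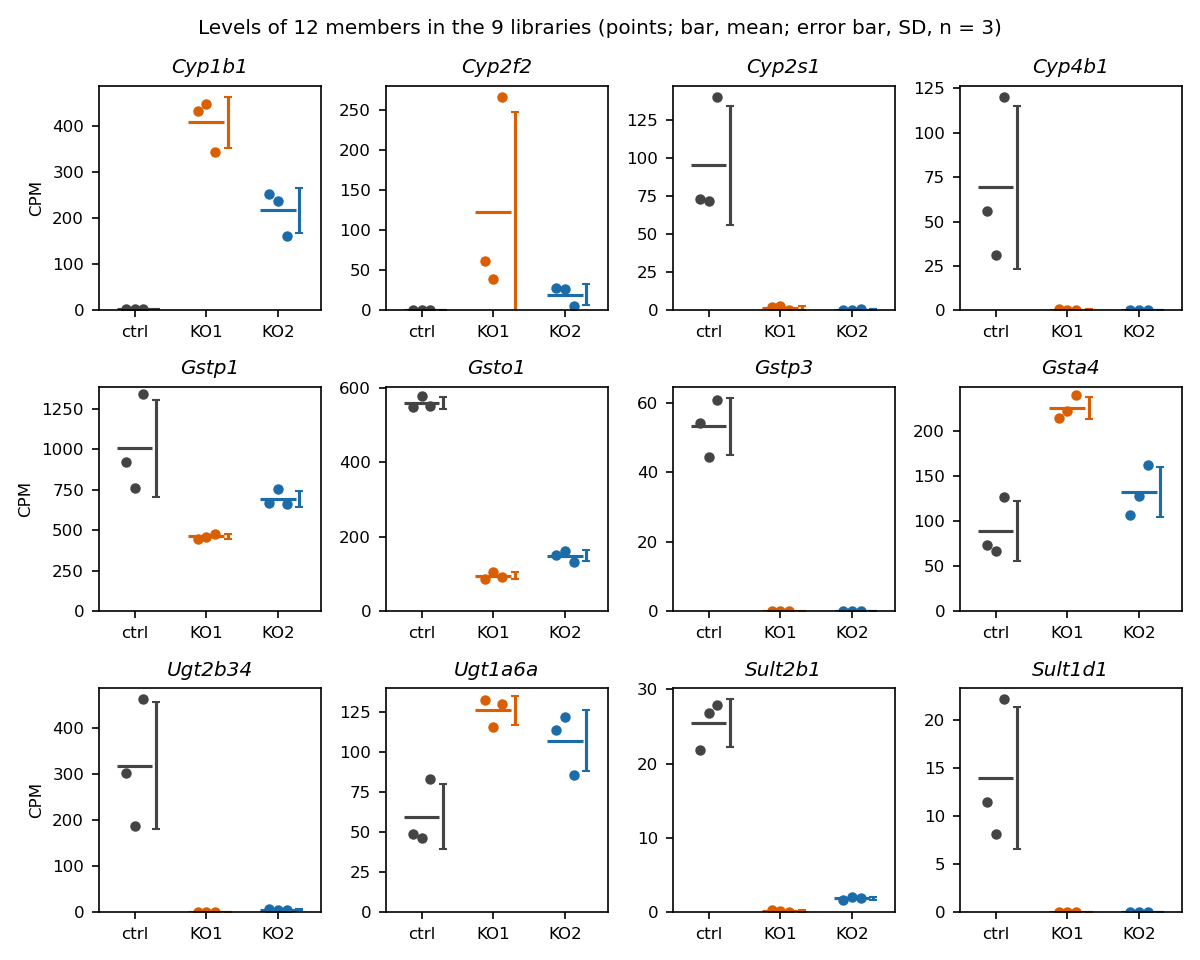
CPM of 12 members in the 9 libraries, with 1 point a library, a horizontal bar at the mean and an error bar of 1 SD (n = 3 a group); the vertical axes start at 0 and differ between panels, and the error bar of Cyp2f2 in Vcam1KO1 is cut off at 0. Cyp1b1 and Cyp2f2 are near 0 in control cells and high in both clones, while Cyp2s1, Cyp4b1, Gstp3, Ugt2b34 and Sult1d1 are high in control cells and near 0 in both clones.

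All 6 UGT genes passed in the combined comparison, 3 higher and 3 lower, against 21.7% and 21.2% of all genes tested. Of the 3 lower, Ugt2b35 reached 1 CPM in control cells only. Ugt2b34, of the subfamily that glucuronidates steroids and bile acids, held place 4 per kilobase in control cells, at 304, 189 and 464 CPM. It was at 1.60, 1.51 and 0.26 CPM in Vcam1KO1 and at 6.48, 6 and 5.24 CPM in Vcam1KO2. It fell 90.9-fold (-6.51 ± 0.83, adjusted p = 0.000242). Ugt2b35 fell as well, from 2.02, 0.59 and 7.56 CPM in control cells to at most 0.13 CPM, with a log2 fold change of -6.02 (adjusted p = 0.000726), or -4.66 without control replicate 3. The Ugt1a genes are alternative first exons spliced to common downstream exons, so they share reads by construction. Ugt1a6a, which takes small phenols, was at 49.2, 46.7 and 83.4 CPM in control cells, 132, 116 and 130 CPM in Vcam1KO1 and 114, 122 and 85.8 CPM in Vcam1KO2 (0.96 ± 0.22, adjusted p = 0.00602). Ugt1a6b was at 51.0, 48.0 and 73.4 CPM in control cells, 129, 107 and 126 CPM in Vcam1KO1 and 120, 128 and 93.1 CPM in Vcam1KO2 (1.03 ± 0.17, adjusted p = 0.00124). The highest control library lay below the lowest knockout library for both. Ugt1a7c rose 2.05-fold (adjusted p = 0.0073). Ugt1a1, the bilirubin-conjugating form, went the other way, from 6.18, 1.86 and 14.9 CPM to 0.53 to 0.61 CPM in Vcam1KO1 and 0.54 to 1.92 CPM in Vcam1KO2 (-3.25 ± 0.63, adjusted p = 0.00268), or -2.33 without control replicate 3. From 53% to 84.2% of the 31-base words of these 4 genes occur in other genes.

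The 4 SULT genes summed to 45.9 to 99.3 CPM in control cells, 15.9 to 19.5 CPM in Vcam1KO1 and 20.0 to 31.9 CPM in Vcam1KO2. In the combined comparison 2 of the 4 were lower, against 21.2% of all genes tested. Of the 2, Sult1d1 reached 1 CPM in control cells only. Sult1d1, which sulfates catecholamines and other phenols, was at 11.5, 8.19 and 22.2 CPM in control cells and had 0 counts in all 6 knockout libraries. Against the floor of 3 counts it was at least 320-fold lower. Sult2b1, which sulfates cholesterol and other sterols, was at 21.8, 26.9 and 27.8 CPM in control cells, 0.31, 0.18 and 0.064 CPM in Vcam1KO1 and 1.64, 2.09 and 1.91 CPM in Vcam1KO2, a fall of 24.7-fold (-4.63 ± 0.90, adjusted p = 0.00275). Sult1c2 was at 21.6, 10.7 and 47.7 CPM in control cells, 14.8, 14.6 and 13.2 CPM in Vcam1KO1 and 26.8, 29.8 and 18.1 CPM in Vcam1KO2. The control libraries spanned all 6 others, and the difference did not pass (-0.45 ± 0.44, adjusted p = 0.432).

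Each clone was also compared with control cells, the 3 control libraries being shared by both comparisons. In Vcam1KO1, 17 members were higher and 21 lower, against 29.9% and 30.0% of all genes tested. In Vcam1KO2, 14 were higher and 28 lower, against 25.3% and 26.1%, and 11 of the 18 GST genes were among the lower ones. The 9 members at 1 CPM in control cells only could only come out lower in these counts. Of the 31 members at 1 CPM or more in all 3 groups, 12 were higher and 8 lower in Vcam1KO1. In Vcam1KO2, 10 of these 31 were higher and 13 lower. No member passed in opposite directions in both clones and between them, against 1.93% of all genes.

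**Figure D3:**
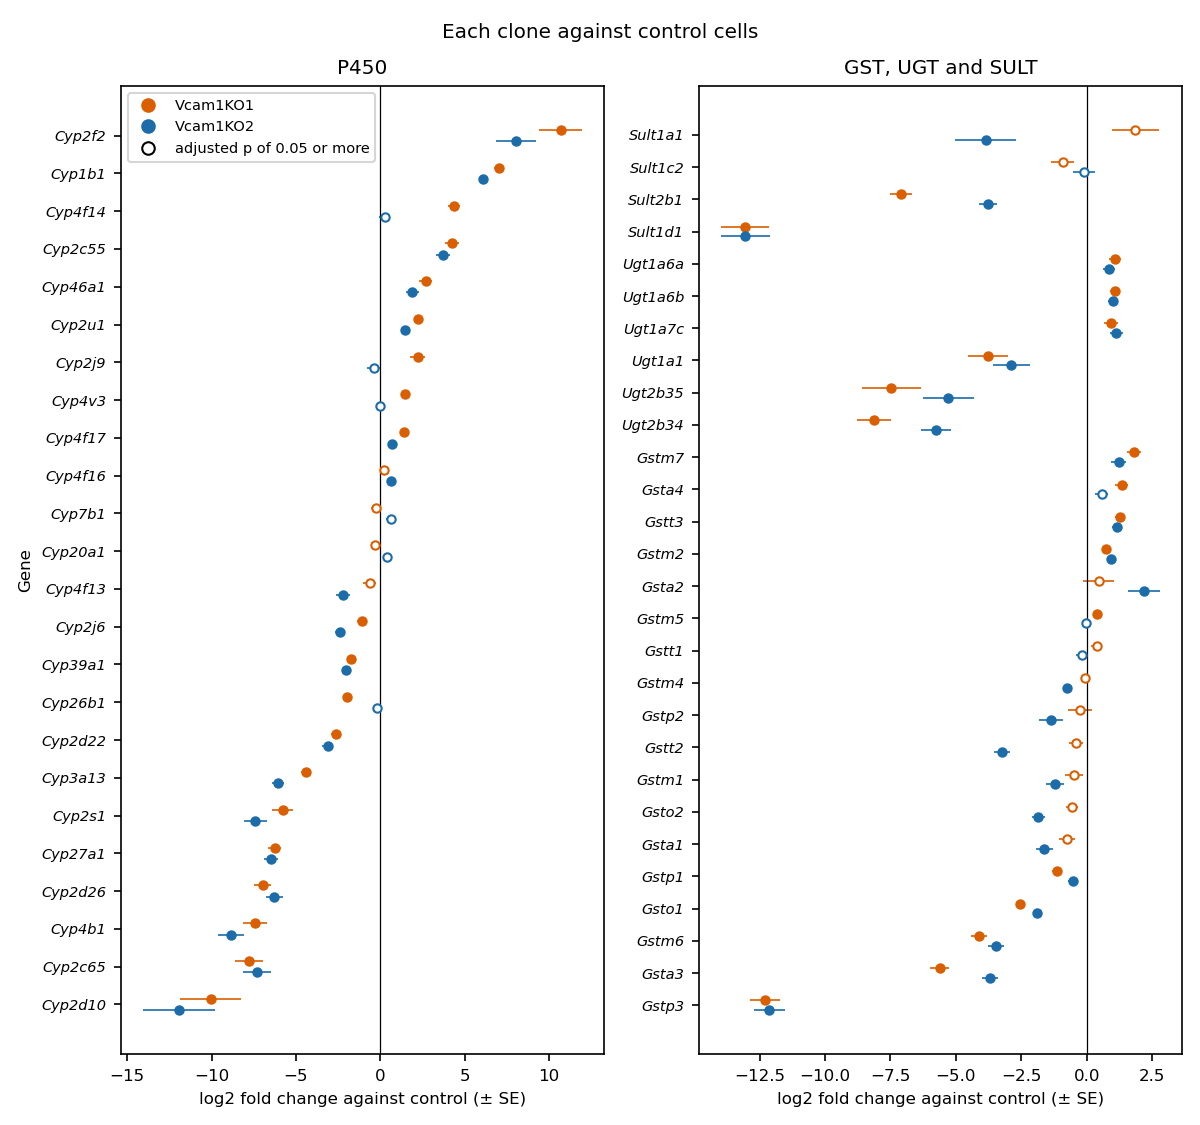
Log2 fold change of each member against control cells (horizontal axis, with SE) for Vcam1KO1 (orange) and Vcam1KO2 (blue), in P450 genes on the left and conjugation genes on the right; open circles did not pass the adjusted p threshold. The values of Sult1d1, Gstp3 and Cyp2d10 depend on the prior count, since their knockout libraries held at most 2 counts. In Vcam1KO1, Ugt2b35 and Cyp2d26 also lay at the floor, with at most 2 and 3 counts, and were at least 82.0-fold and 88.3-fold lower. The widest gaps between the clones are those of Sult1a1 and Cyp4f14.

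Between the clones, 16 members were higher in Vcam1KO1 and 10 in Vcam1KO2, against 20.2% and 18.5% of all genes tested. Sult1a1, Cyp4f14 and Cyp2j9 reached 1 CPM in Vcam1KO1 only and Gsta2 in Vcam1KO2 only, so they had to differ between groups. Gstt2 reached it in control cells and Vcam1KO1 only, and Sult2b1 in control cells and Vcam1KO2 only. Of the 31 members at 1 CPM or more in all 3 groups, 10 were higher in Vcam1KO1 and 8 in Vcam1KO2. Sult1a1, a phenol sulfotransferase, differed most. It was at 0.53, 0.17 and 1.58 CPM in control cells, 0.84, 1.24 and 6.27 CPM in Vcam1KO1 and 0.069, 0.071 and 0.015 CPM in Vcam1KO2, the last with at most 5 counts. The clones differed by 5.72 ± 1.17 on the log2 scale (adjusted p = 0.00458), or by 4.31 without replicate 3 of Vcam1KO1. Cyp4f14, a leukotriene B4 omega-hydroxylase, was at 0.33, 0.31 and 0.49 CPM in control cells and at 0.41, 0.49 and 0.46 CPM in Vcam1KO2, but at 7.41, 5.02 and 11 CPM in Vcam1KO1 (4.09 ± 0.35 between clones, adjusted p = 4.23e-05). The rise over control was thus carried by 1 clone. Sult2b1 was lower in both clones and 3.33 ± 0.38 lower on the log2 scale in Vcam1KO1 than in Vcam1KO2 (adjusted p = 0.000222). Gstt2 was at 2.17, 2.49 and 2.15 CPM in control cells, 1.41, 1.40 and 2.33 CPM in Vcam1KO1 and 0.26, 0.24 and 0.22 CPM in Vcam1KO2, a difference of 2.83 ± 0.30 (adjusted p = 0.000149). Cyp26b1, which clears retinoic acid, was at 23.5 to 26.3 CPM in control cells and 21.9 to 22.2 CPM in Vcam1KO2, but at 4.34 to 8.30 CPM in Vcam1KO1 (-1.79 ± 0.21 between clones, adjusted p = 0.000247). Cyp4v3, the mouse counterpart of the fatty acid hydroxylase CYP4V2, was at 24.3 to 28.8 CPM in Vcam1KO1 against 8.21 to 11.8 CPM in control cells and 6.70 to 10.9 CPM in Vcam1KO2 (1.48 ± 0.22, adjusted p = 0.000856).

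Many members lie side by side in the genome. By their positions in GENCODE vM21 (GRCm38), 35 of the 52 members lie within 1 Mb of another, in 11 groups, and in 4 of the 11 members passed in opposite directions. On chromosome 19, Cyp2c55 (39007019 to 39042693) rose and Cyp2c65 (39061015 to 39093944) fell, and both are on the plus strand. In the GST mu group on chromosome 3, Gstm7 (107926334 to 107931817) rose and the adjacent Gstm6 (107938847 to 107943749) fell. In the GST alpha group on chromosome 9, Gsta4 rose and Gsta1 fell. In the Ugt1a locus on chromosome 1, Ugt1a7c, Ugt1a6b and Ugt1a6a rose and Ugt1a1, whose first exon lies nearest to the common exons, fell. On chromosome 19, Gstp1 fell 1.74-fold with both clones combined and 2.17-fold in Vcam1KO1, beside Gstp3 with at most 2 counts in a knockout library. The Cyp2d genes on chromosome 15 and the group of Ugt2b34, Ugt2b35 and Sult1d1 on chromosome 5 were all lower, but Cyp2d10, Cyp2d26, Ugt2b35 and Sult1d1 reached 1 CPM in control cells only and so had to differ. Of the 52 members, 17 share at least 10% of their 31-base words with another gene and 8 at least 50%, so that values of close relatives depend on how kallisto divided shared reads.

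**Figure D4:**
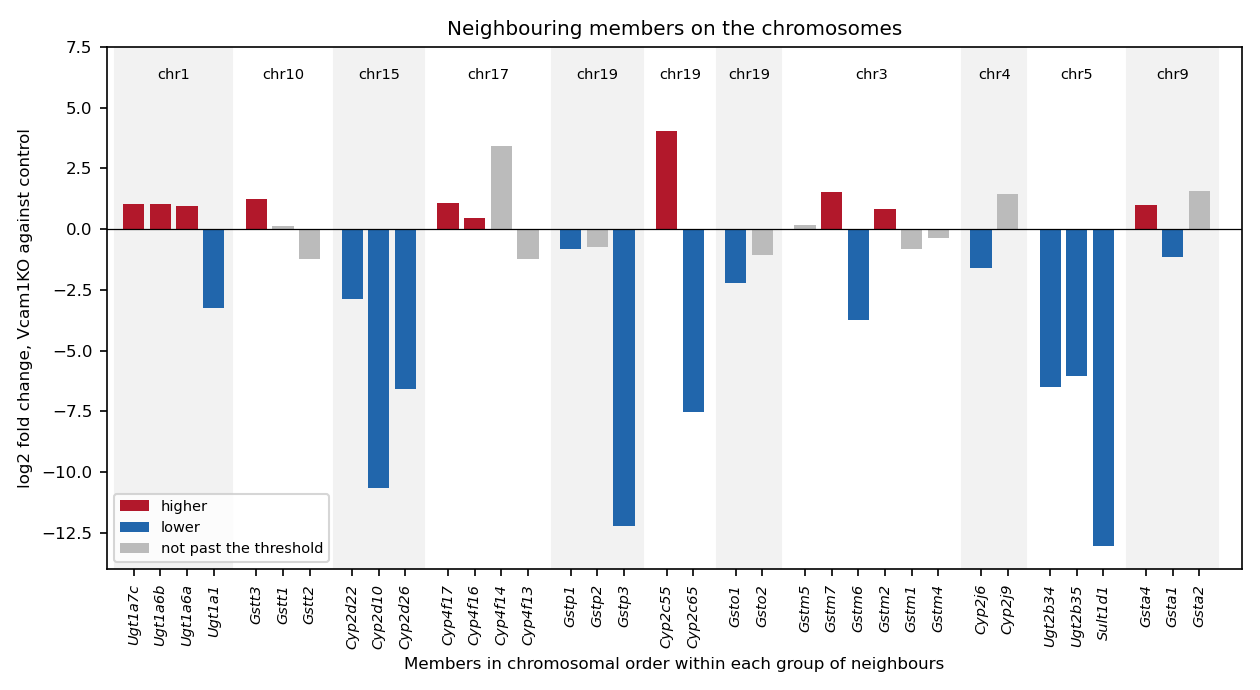
Log2 fold change of both clones against control cells (vertical axis) for the 35 members in the 11 groups of neighbours, in chromosomal order within each shaded or unshaded group. Red bars were higher, blue lower and grey did not pass; red and blue bars stand side by side in the Ugt1a, Cyp2c, Gstm and Gsta groups, and the bars of Sult1d1, Gstp3 and Cyp2d10 depend on the prior count.

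Genes that serve these enzymes were read from lists. Of 10 electron partners, 2 were higher and 2 lower with both clones combined, near the 21.7% and 21.2% of all genes tested. Por, the reductase that serves microsomal P450 enzymes, was at 134 to 166 CPM in control cells, 108 to 126 CPM in Vcam1KO1 and 283 to 311 CPM in Vcam1KO2. It was lower than control in one clone (-0.37, adjusted p = 0.0181) and higher in the other (1, adjusted p = 7.86e-05), and the clones differed by -1.38 (adjusted p = 4e-05). Cyb5r3, a cytochrome b5 reductase, was higher (0.78, adjusted p = 0.00152), and Cyb5b, a mitochondrial cytochrome b5, was lower (-0.68, adjusted p = 0.00226).

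Of the 11 genes of cofactor supply, 6 were lower and 1 higher with both clones combined, against 21.2% and 21.7% of all genes tested. Their median log2 fold change was -1.03. Ugdh, which makes UDP-glucuronic acid, was at 287, 288 and 325 CPM in control cells, 73.0, 78.3 and 51.1 CPM in Vcam1KO1 and 80.7, 85.4 and 118 CPM in Vcam1KO2 (-1.89, adjusted p = 0.000102). Slc35d1, which carries that sugar nucleotide into the endoplasmic reticulum, fell from 53 to 60.8 CPM to 9.39 to 10.9 CPM over both clones (-2.51, adjusted p = 4.23e-07). Ugp2, which makes the UDP-glucose from which UDP-glucuronic acid derives, was the 1 that rose (1.07, adjusted p = 0.0269). On the sulfation side, the sulfate transporter gene Slc26a2 fell (-1.95, adjusted p = 0.000102). Papss2, which makes the sulfate donor, was at 70.7 to 97.4 CPM in control cells, 53.5 to 74.1 CPM in Vcam1KO1 and 11.2 to 15.1 CPM in Vcam1KO2, and fell in Vcam1KO2 (-2.62, adjusted p = 3.91e-06), whereas its homologue Papss1 did not pass. For glutathione, Gss (-1.30, adjusted p = 0.00118) and Gsr (-1.03, adjusted p = 0.000477) fell, whereas Gclc and Gclm, the subunits of the first enzyme of its synthesis, did not pass (adjusted p = 0.263 and 0.188).

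Of 12 conjugate transporters tested, 6 were lower with both clones combined, against 21.2% of all genes tested. In Vcam1KO1, 2 were higher and 8 lower, against 29.9% and 30.0%. Abcc2, which exports conjugates across the apical membrane, was at 53.4, 54.1 and 71.9 CPM in control cells, 0.045, 0.1 and 0.032 CPM in Vcam1KO1 and 0.84, 0.57 and 0.5 CPM in Vcam1KO2 (-7.44, adjusted p = 0.000125). Abcc3 and Abcc4, which export them across the basolateral membrane, fell by 3.82 and 2.56 on the log2 scale (adjusted p = 0.000512 and 0.000635). Abcg2 was higher than control in Vcam1KO1 (0.99, adjusted p = 0.000762) and lower in Vcam1KO2 (-0.45, adjusted p = 0.0482).

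**Figure D5:**
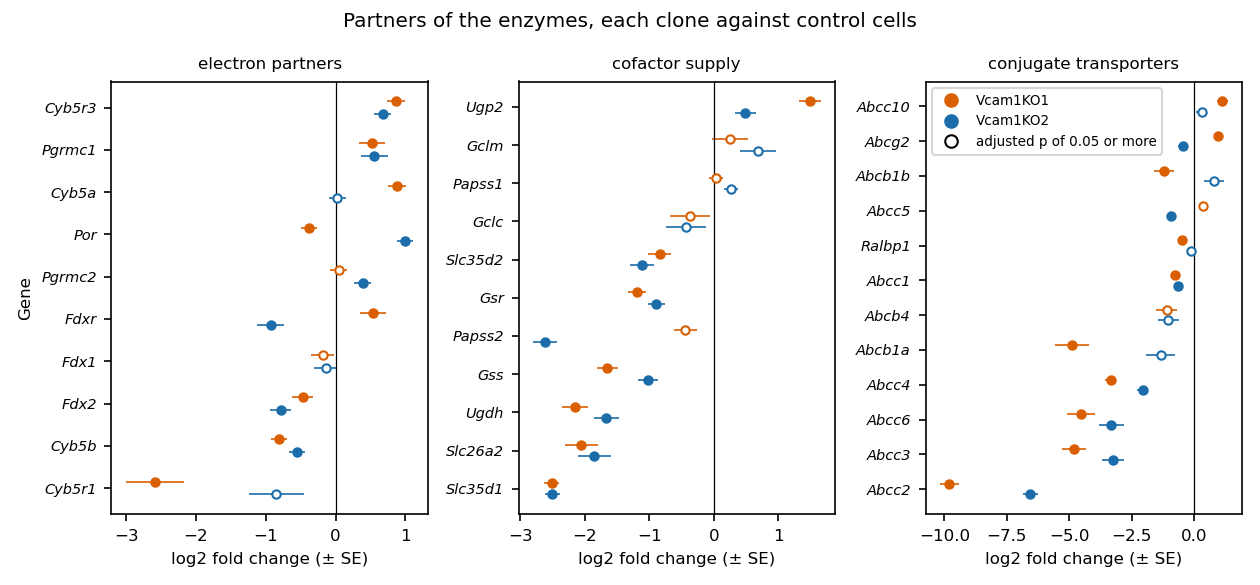
Log2 fold change against control cells (horizontal axes, with SE) of the electron partners, the cofactor supply genes and the conjugate transporters tested, for Vcam1KO1 (orange) and Vcam1KO2 (blue); open circles did not pass the threshold. Por lies on opposite sides of 0 in the clones, and Slc35d1, Ugdh, Abcc2, Abcc3 and Abcc4 lie far to the left in both.

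Of 31 other conjugation and hydrolysis enzymes tested, 9 were higher and 2 lower with both clones combined, against 21.7% and 21.2% of all genes. In Vcam1KO1, 12 were higher and 6 lower, against 29.9% and 30.0% of all genes. In Vcam1KO2, 9 were higher and 9 lower, against 25.3% and 26.1%. Between the clones, 16 were higher and 5 lower in Vcam1KO1, against 20.2% and 18.5%. Gusb, which hydrolyses glucuronides in lysosomes, rose from 46.2 to 51.3 CPM to 188 to 241 CPM in Vcam1KO1 and 116 to 134 CPM in Vcam1KO2 (1.77, adjusted p = 0.000476). Cbr3, a carbonyl reductase (2.69, adjusted p = 1.79e-05), and Mgst1, a membrane-bound glutathione transferase (1.42, adjusted p = 0.00765), also rose. Nqo1, a quinone reductase and a known NRF2 target, fell from 0.87 to 3.62 CPM to at most 0.29 CPM (-3.96, adjusted p = 0.00324). Hpgds, a sigma class GST that makes prostaglandin D2, fell by 4.93 on the log2 scale (adjusted p = 2.71e-05).

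Of 28 regulators tested, 7 were higher and 12 lower with both clones combined, against 21.7% and 21.2% of all genes tested. Hnf4a, which encodes a nuclear receptor of hepatocytes, was at 207 to 264 CPM in control cells and had 0 counts in all 6 knockout libraries. Ahr, which encodes the aryl hydrocarbon receptor, was at 49.3 to 57.0 CPM in control cells, 7.71 to 26.1 CPM in Vcam1KO1 and 67.1 to 82.4 CPM in Vcam1KO2. It was lower than control in Vcam1KO1 (-1.57, adjusted p = 0.00352) and did not pass in Vcam1KO2 (0.48, adjusted p = 0.268). Tiparp, another known target of that receptor, did not pass in either clone (0.08 and -0.43, adjusted p = 0.848 and 0.282), and Ahrr was too low to test, at no more than 0.13 CPM in any library. Cyp1a1, of the same family as Cyp1b1, lay below the members' level. Before TMM scaling it was at 0.13 to 1.89 CPM in control cells, at most 0.011 CPM in Vcam1KO1 and 0.26 to 0.46 CPM in Vcam1KO2. Cyp1a1 was lower than control in Vcam1KO1 and did not pass in Vcam1KO2. The part of these genes in the level of Cyp1b1 was not tested. Nfe2l2, which encodes NRF2, was lower than control in Vcam1KO1 (-0.36, adjusted p = 0.0312) and higher in Vcam1KO2 (0.34, adjusted p = 0.0418). Rxra, the common partner of nuclear receptors, rose (1.12, adjusted p = 0.0024), as did the bile acid receptor gene Nr1h4 (1.42, adjusted p = 0.00476), while Nr1i2 and Nr0b2 stayed under 0.17 CPM everywhere.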

How the data were processed

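RNA from 9 cultures was sequenced as stranded mRNA libraries (paired-end). Per the labels and the study's methods, the authors quantified reads with kallisto 0.46.1 against GENCODE vM24 transcripts of mm10. The deposited values are estimated counts per gene, held as whole numbers. How transcripts were summed to genes is not given in the sources used here. Shared exons and near-identical genes are divided by the estimate.

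From these counts, CPM (counts scaled to a library total of 1000000 by TMM) were computed. Groups were compared with edgeR 4.0.16 in R 4.3.3 (quasi-likelihood test, filterByExpr, the default prior count of the fit). The test gives no SE. Each SE, in text and figures, was the absolute log2 fold change divided by the square root of the F statistic. P-values were adjusted by Benjamini-Hochberg over 17672 genes, with a threshold of adjusted p under 0.05. The combined comparison pooled both clones, and the clone comparisons used 3 groups. Alternatives were limma 3.58.1 (voom), DESeq2 1.42.0, other scalings, filters and levels, and leaving out each library. Scripts were tested on simulated data. A count of 0 was read against a floor of 3 counts in a library, or 0.0239 to 0.0554 CPM, which covers counting error only.

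The members and lists were chosen with earlier results of these data known. Values of all 9 libraries were given for the 3 highest members of each family, the 8 largest rises and falls without overlap and the 4 largest clone differences. Other genes were named after their values were seen. P-values of the clone comparisons measure the spread between passages of each line. The combined comparison took the 6 libraries of both clones as replicates of 1 group. Its spread thus also holds the difference between the clones. Positions, exon lengths and shared 31-base words are from GENCODE vM21 (GRCm38), promoters from RefSeq (GRCm38.p6). Some alleles of the line and 1 listed regulator are not reported here.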

Additional observations from a re-analysis of the deposited data

Results flagged for a closer look

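The difference from the same controls differed between the clones for 26 of the 52 members (50%), against 38.7% of all genes tested, by edgeR's direct test of Vcam1KO1 against Vcam1KO2. Groups of 3 libraries were not tested for single outlying samples. Cyp4f14, Cyp2j9, Sult1a1 and Gsta2 reached 1 CPM in 1 clone and not in control cells or the other clone, so they had to differ between groups. Gstt2 reached it in control cells and Vcam1KO1 only, and Sult2b1 in control cells and Vcam1KO2 only. In log2 units, Vcam1KO1 minus Vcam1KO2, the P450 genes higher in Vcam1KO1 were Cyp4f14 (4.09), Cyp2f2 (2.63), Cyp2j9 (2.58), Cyp3a13 (1.69), Cyp4f13 (1.59), Cyp4v3 (1.48), Cyp2j6 (1.28), Cyp1b1 (0.91), Cyp2u1 (0.79) and Cyp4f17 (0.72). P450 genes higher in Vcam1KO2 were Cyp26b1 (-1.79), Cyp7b1 (-0.89), Cyp20a1 (-0.72) and Cyp4f16 (-0.40). Of the GST genes, Gstt2 (2.83), Gsto2 (1.29), Gsta4 (0.77), Gstm4 (0.70) and Gstm5 (0.43) were higher in Vcam1KO1, and Gsta3 (-1.92), Gsta2 (-1.73), Gsto1 (-0.65) and Gstp1 (-0.58) in Vcam1KO2. Sult1a1 (5.72) was higher in Vcam1KO1, and Sult2b1 (-3.33) and Ugt2b34 (-2.37) in Vcam1KO2.

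Leaving out replicate 3 of Vcam1KO1, the library that stood apart, gave 1.35 for Cyp2f2 (adjusted p = 0.121), -2.51 for Gsta2 and 4.31 for Sult1a1, the 3 of these 26 differences that a single library moved by more than 1.5-fold. The difference of Gsta2 did not pass under 8 of 15 other settings.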

How the results depend on the processing

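No paired analysis was possible because the labels give no replicate numbers shared between groups. With members at a mean of 5 CPM, fewer genes remained to be counted: 12 were lower with both clones combined, 13 in Vcam1KO1 and 15 in Vcam1KO2, and 9 were higher in Vcam1KO1 than in Vcam1KO2. Leaving out 1 library at a time, 5 to 12 members were lower in Vcam1KO1 than in Vcam1KO2, the 5 without replicate 2 of Vcam1KO2. With both clones' contrasts averaged in place of pooled, 16 members were higher and 27 lower. The other counts stayed within 1.5 times. Shares of all genes under these alternatives are not given, so the counts describe only how the members' calls moved with the setting.

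No member that passed the threshold changed sign under any alternative. Those that did had not passed. Combined, Sult1a1 was -0.81 with limma-voom and -1.001 with averaged contrasts, and leaving out single libraries gave -0.74 to 1.99 for it, -0.10 to 0.44 for Gstt1, -0.017 to 0.21 for Cyp20a1 and -0.87 to 0.27 for Sult1c2. In Vcam1KO1 the same gave -0.88 to 0.067 for Gstm1, -0.22 to 0.045 for Gstm4, -0.83 to 0.32 for Gstp2 and -0.32 to 1.01 for Gsta2. In Vcam1KO2 it gave -0.37 to 0.14 for Gstt1, -0.11 to 0.014 for Gstm5, -0.51 to 0.62 for Sult1c2 (0.070 with limma-voom) and -0.17 to 0.14 for Cyp4v3. Between clones it gave -0.076 to 0.17 for Ugt1a6b, -0.020 to 0.21 for Gstt3, -0.10 to 0.51 for Cyp27a1 and -1.36 to 0.27 for Cyp2c65. The cause was not tested.

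Calls were lost under at least 1 alternative for 6 members combined (Gstp1, Gsta4, Ugt1a7c, Cyp4f16, Cyp2j6 and Gsta1), 2 in Vcam1KO1 (Ugt1a7c and Gstm5), 4 in Vcam1KO2 (Gstp1, Gstm1, Gstp2 and Sult1a1) and 9 between clones (Gstp1, Gsta4, Gstm5, Gsta2, Cyp2f2, Cyp20a1, Cyp4f16, Cyp7b1 and Cyp2u1). Between clones, Gstm5 lost its call under 11 of 15 alternatives, Gstp1 under 9 and Gsta2 under 8. In Vcam1KO2, Gstp1 lost its call under 8 of 15. Cyp2j6 lost its call without control replicate 3, Ugt1a7c without control replicate 2, and Gsta1 without either of these, Vcam1KO1 replicate 1 or Vcam1KO2 replicate 2. Without control replicate 3, Gstp2 in Vcam1KO2 went from -1.37 to -0.77 and Sult1a1 from -3.86 to -2.79.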
